A study of Mus musculus with 24 samples.

Results

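Vamp1, Trim67 and Tmem140 are 3 of the 36144 genes in the count table of this series, and all 3 were among the 13129 genes with enough reads to be tested. They were chosen from the data: outside the families of early response genes they stood near the top of all genes by the size of p for the ligand deschloroclozapine (DCZ) against saline in Th-Cre mice. That comparison therefore only describes them below, without a test. RNA was measured in interscapular brown adipose tissue (iBAT), the heat-producing fat between the shoulder blades, from 24 mice aged 6 to 8 months and taken 30 minutes after an injection. WT mice and Th-Cre mice each received saline or DCZ, which gave 4 groups of 6 mice with 3 males and 3 females in each. WT mice are labelled C57Bl/6J and Th-Cre mice B6.129X1- Tht1(cre)Te/Kieg. In the Th-Cre line Cre recombinase is driven by the tyrosine hydroxylase gene, so it is active in cells that make catecholamines, which include sympathetic neurons. DCZ binds designer muscarinic receptors, and the series asks what chemogenetic activation of the sympathetic neurons that project to this fat does to it. No source used here gives the receptor, its delivery or the activity of the neurons.

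Sympathetic nerves release noradrenaline onto brown adipocytes, where beta-adrenergic receptors raise cyclic AMP and CREB-type factors act at cAMP response elements in promoters. Vamp1 (synaptobrevin 1) is a vesicle SNARE, which pairs with syntaxin and SNAP proteins of a target membrane to drive fusion, and is best known from nerve terminals. Trim67 is an E3 ubiquitin ligase of the TRIM family, known mainly from neurons, where it interacts with the netrin receptor Dcc. Tmem140 is a protein with several membrane-spanning stretches, and its human counterpart is known as an interferon-induced gene. In this tissue the roles of these genes are little described.

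On GRCm38 with the GENCODE M21 annotation, Vamp1 lies on chromosome 6 from 125215551 to 125245964, Trim67 on chromosome 8 from 124793092 to 124834713 and Tmem140 on chromosome 6 from 34863146 to 34874946, all on the plus strand. As a description of each gene, the 250 bases before its start are printed, and no shared regulation is read from them. They come from RefSeq on GRCm38.p6, which holds a promoter entry for each of the 3 genes, and are given 5′ to 3′ on the plus strand at chr6:125215331-125215580, chr8:124792769-124793018 and chr6:34862896-34863145. Capitals mark motifs found by a search of both strands.
Vamp1: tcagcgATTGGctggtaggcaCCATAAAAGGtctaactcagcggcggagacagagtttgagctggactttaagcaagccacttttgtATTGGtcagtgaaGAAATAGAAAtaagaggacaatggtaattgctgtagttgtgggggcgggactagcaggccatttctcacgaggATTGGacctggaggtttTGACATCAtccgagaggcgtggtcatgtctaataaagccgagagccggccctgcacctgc
Trim67: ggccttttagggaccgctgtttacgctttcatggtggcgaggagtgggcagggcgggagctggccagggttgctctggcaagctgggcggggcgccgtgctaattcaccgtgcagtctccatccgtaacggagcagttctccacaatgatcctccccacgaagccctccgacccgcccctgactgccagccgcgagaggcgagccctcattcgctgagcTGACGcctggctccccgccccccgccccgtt
Tmem140: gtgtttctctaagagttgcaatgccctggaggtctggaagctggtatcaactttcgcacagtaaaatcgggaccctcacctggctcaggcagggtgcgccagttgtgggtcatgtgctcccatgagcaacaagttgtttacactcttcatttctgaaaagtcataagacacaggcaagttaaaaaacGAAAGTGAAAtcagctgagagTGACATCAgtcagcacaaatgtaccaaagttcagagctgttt

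The full cAMP response element TGACGTCA was found in none of the 3 windows, and 1.55% of 32817 RefSeq promoters hold it. Its core TGACG, which is part of the full element, stood 31 bases before the start of Trim67 and is held by 17.7% of promoters. TGACATCA, searched for only after the sequences had been read, stood 60 bases before the start of Vamp1 and 42 before that of Tmem140, and 2.93% of promoters hold it. The core of the interferon-stimulated response element, searched as GAAA, any 2 bases and GAAA, stood at 150 bases in Vamp1 and 63 in Tmem140, against 2.97% of promoters. Vamp1 also held 3 CCAAT boxes on the minus strand (33.8% of promoters hold any on either strand) and the CArG motif of the serum response element (1.47%). The AP-1 site TGANTCA (6.75% of promoters), the full glucocorticoid response element, searched as AGAACA, any 3 bases and TGTTCT (0.00914%), and TATAAA (12.4%) were absent from these letters in all 3. The RefSeq starts lie 30 bases from the annotated gene start for Vamp1 and 73 for Trim67, and coincide for Tmem140. A match of letters describes the sequence and is not a measured binding site.

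Levels are given in CPM, counts scaled to a common library total, on library sizes scaled by the trimmed mean of M values. Vamp1 was a gene of middling level, at the 52.6th percentile of the mean level of genes tested, Trim67 at the 70.7th and Tmem140 at the 83.7th. Per kilobase of exon, mean levels were in the order Tmem140, Trim67, Vamp1 in each of the 4 groups. In WT saline mice they were 8.27, 4.05 and 1.61 CPM per kilobase, and in Th-Cre DCZ mice 12.2, 1.92 and 1.08. Behind these values stood 115 to 352 estimated reads per library for Vamp1, 120 to 863 for Trim67 and 508 to 1576 for Tmem140. The totals per library ran from 11933532 to 22865592 reads.

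Vamp1 was lowest in Th-Cre DCZ mice. In WT saline mice its lowest, median and highest levels were 13.5, 17.2 and 19.4 CPM, and in WT DCZ mice 16.1, 16.5 and 19.0 CPM. In Th-Cre saline mice they were 14.6, 15.6 and 17.6 CPM, and in Th-Cre DCZ mice 9.19, 10.7 and 12.9 CPM. Every Th-Cre DCZ library lay below all 18 others. Of all genes tested, 0.0990% had every Th-Cre DCZ library below every Th-Cre saline library, and the share below all 18 was not counted. Group means were 16.4 CPM ± 2.34 (SD, n = 6), 17.1 ± 1.17, 15.7 ± 1.07 and 11.03 ± 1.48 in the same order. WT saline libraries overlapped both WT DCZ and Th-Cre saline libraries, whereas 5 of the 6 Th-Cre saline libraries lay below every WT DCZ library, and the means of those groups differ by more than either SD. Between the Th-Cre groups the fitted level was 1.42-fold lower after DCZ (log2 fold change -0.50 ± 0.0940 SE).

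Trim67 had the same order of groups with a wider spread. Lowest, median and highest levels were 27.9, 34.7 and 43.5 CPM in WT saline mice and 33.5, 37.5 and 49.3 CPM in WT DCZ mice. They were 25.7, 30.2 and 40.3 CPM in Th-Cre saline mice and 9.58, 17.2 and 23.3 CPM in Th-Cre DCZ mice. Again all 6 Th-Cre DCZ libraries lay below all others, while the other 3 groups overlapped. The means were 35.4 CPM ± 7.17, 40.2 ± 6.41, 31.4 ± 6.15 and 16.7 ± 5.19 (SD, n = 6). The Th-Cre DCZ mice varied most in proportion, with a coefficient of variation of 30.98% against 15.9 to 20.2% in the other groups. The fitted level in Th-Cre mice was 1.85-fold lower after DCZ (log2 fold change -0.89 ± 0.174 SE).

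Tmem140 stood in the opposite direction. Lowest, median and highest levels were 44.0, 48.5 and 53.1 CPM in WT saline mice and 37.7, 43.9 and 47.1 CPM in WT DCZ mice. They were 37.2, 52.3 and 59.2 CPM in Th-Cre saline mice and 61.7, 68.2 and 92.2 CPM in Th-Cre DCZ mice. All 6 Th-Cre DCZ libraries lay above all others, and the other 3 groups overlapped. The means were 48.4 CPM ± 3.50, 43.7 ± 3.26, 49.9 ± 7.85 and 71.2 ± 10.8 (SD, n = 6), and the fitted level in Th-Cre mice was 1.42-fold higher after DCZ (log2 fold change 0.50 ± 0.0969 SE). Of all genes tested, 0.206% had every Th-Cre DCZ library above every Th-Cre saline library and 0.0990% had every one below. Against WT DCZ libraries these shares were 1.81% and 1.68%, and against WT saline libraries 2.67% and 2.84%. Nothing is read from these shares here, because the members were chosen on this contrast.

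**Figure D1:**
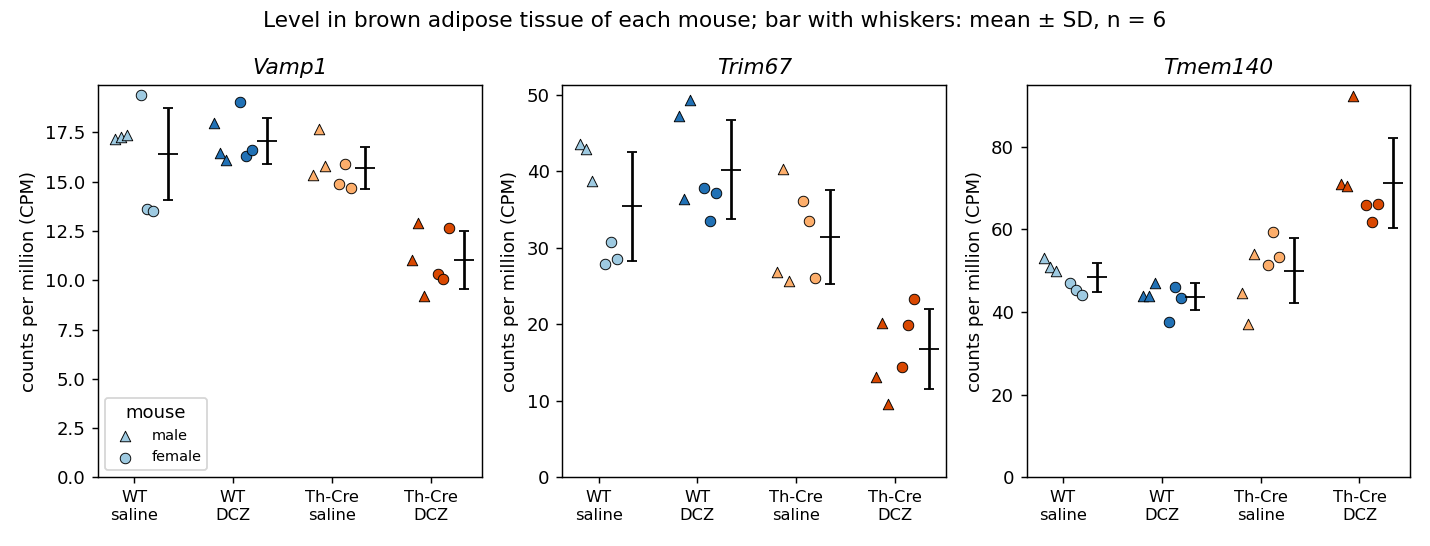
Level in CPM (vertical axis, from 0) of Vamp1, Trim67 and Tmem140 in each of the 24 mice by group (horizontal axis), with males as triangles, females as circles and a bar for the mean ± SD of 6 mice. The Th-Cre DCZ mice sit at 9.19 to 12.9 CPM for Vamp1 and 9.58 to 23.3 for Trim67, below all other mice, and at 61.7 to 92.2 for Tmem140, above all other mice.

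In the order of p that chose them (edgeR quasi-likelihood test, DCZ in Th-Cre mice), the genes Dusp1, Ppp1r15a and Jun came first, and these were the 3 genes with an adjusted p under 0.05 (0.0229% of genes tested). Vamp1 was the 4th gene, Tmem140 the 5th and Trim67 the 7th, so none of the 3 passed that threshold. They were chosen by this order, and their places in it are not a test of them. Just outside followed the early response genes Dusp6, Dnajb9 and Gadd45g and then Ppp1r3c, a glycogen-targeting phosphatase subunit.

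The Th-Cre DCZ mouse DN2097 stood at the end of the range for all 3 genes. It had the lowest Vamp1 (9.19 CPM) and Trim67 (9.58 CPM) and the highest Tmem140 (92.2 CPM) of all 24 mice. It also had the highest Jun (264 CPM) and Dusp1 (237 CPM) of its group. Its library, with 12698385 reads, was the smallest of the 6 in its group. In the Th-Cre saline group DN2089 stood at the opposite ends, with the highest Vamp1 (17.6 CPM) and Trim67 (40.3 CPM) and the lowest Tmem140 (37.2 CPM). Leaving out any 1 of the 24 libraries kept the Th-Cre DCZ value between -0.56 and -0.45 for Vamp1, -1.02 and -0.76 for Trim67, and 0.41 and 0.57 for Tmem140 on the log2 scale.

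Skeletal muscle transcripts were present in 6 libraries (WT saline 12, Th-Cre saline DN2086, DN2087 and DN2094, Th-Cre DCZ DN2075 and DN2091), where 13 muscle markers averaged 1.77 or more in log2 CPM, against -0.16 or less in the other 18. Of the WT saline mice, the one with muscle transcripts had the lowest Vamp1 (13.5 CPM) and the lowest Tmem140 (44.0 CPM), each close to the next mouse at 13.6 and 45.2 CPM. In the Th-Cre groups the libraries with and without muscle transcripts overlapped. In the Th-Cre DCZ group the muscle-containing pair held Vamp1 at 10.3 and 12.9 CPM, and the other 4 libraries at 9.19 to 12.6 CPM. For Tmem140 the pair stood at 66.0 and 70.4 CPM and the other 4 at 61.7 to 92.2. Without these 6 libraries the Th-Cre DCZ log2 fold changes were -0.58 ± 0.127 for Vamp1, -0.85 ± 0.248 for Trim67 and 0.59 ± 0.130 for Tmem140 (SE).

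The brown fat markers Ucp1 (1752 to 6533 CPM) and Cidea (1183 to 1826 CPM) were high in every library. Sympathetic neurons contribute mainly axons to this tissue. Of their 13 markers only Stmn2 had enough reads to be tested, Th gave 1 read in all and Hand2 gave 0. Summed over the 13 markers, the level was 3.04 to 6.29 CPM in WT and 3.06 to 5.03 CPM in Th-Cre libraries. In bulk tissue, fewer cells of a type and less RNA per cell cannot be told apart. For DCZ in Th-Cre mice, edgeR called 0 of the markers tested in any of 10 cell type lists, against 0.0229% of all genes, a share at which most short lists hold no call. At an unadjusted p under 0.05 stood 745 of all genes.

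DCZ in WT mice, which carry no Cre, lies outside the contrast that chose the genes and was tested. It shared the filter, scaling and estimate of spread of that contrast, so its SE and p are not fully independent of the choice. None of the 3 passed, against 1 of 13129 genes (0.00762%) that did and 1137 with an unadjusted p under 0.05. The log2 fold change was 0.06 ± 0.0916 for Vamp1 (SE), with a 95% interval from -0.13 to 0.25 and an adjusted p of 0.860 (edgeR). For Trim67 it was 0.19 ± 0.167 (adjusted p = 0.738, interval -0.16 to 0.53) and for Tmem140 -0.15 ± 0.0971 (adjusted p = 0.647, interval -0.35 to 0.05). The 3 signs were opposite to those in Th-Cre mice. For Tmem140 all 6 WT DCZ libraries lay below the WT saline mean and 4 lay below every WT saline library. For Vamp1 and Trim67 4 and 5 of the 6 WT DCZ libraries lay above the saline mean.

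Treatment in WT mice is close to confounded with library number, since the lower 6 WT numbers hold 5 DCZ libraries and the upper 6 hold 5 saline libraries. With a term for lower and upper numbers within each genotype, the WT value of Vamp1 turned to -0.051 ± 0.118, while Trim67 stood at 0.28 ± 0.240 and Tmem140 at -0.14 ± 0.133 (SE). In Th-Cre mice, where the lower and the upper 6 numbers each hold 3 of each treatment, the same term left the DCZ values at -0.50, -0.88 and 0.50. The difference between the genotypes in the DCZ value, which contains the contrast that chose the genes and is not tested here, was -0.56 ± 0.131 for Vamp1, -1.08 ± 0.241 for Trim67 and 0.65 ± 0.137 for Tmem140 (log2, SE).

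The genotype difference is also given as a description, since it contains the Th-Cre DCZ mice on which the choice was made. Averaged over treatments, the log2 fold change of Th-Cre against WT mice was -0.34 ± 0.0656 for Vamp1, -0.70 ± 0.121 for Trim67 and 0.38 ± 0.0685 for Tmem140 (SE). Of all genes tested, 38.0% passed in this comparison (18.6% higher and 19.4% lower in Th-Cre mice). Split by treatment, the difference was near 0 under saline (-0.06 ± 0.0924 for Vamp1, -0.17 ± 0.169 for Trim67, 0.05 ± 0.0972 for Tmem140) and stood away from 0 under DCZ (-0.63 ± 0.0933, -1.24 ± 0.173 and 0.70 ± 0.0969).

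WT libraries hold the lower 12 library numbers and Th-Cre libraries the upper 12, so genotype and library number cannot be told apart. Marker genes of other cells differed with genotype too, against 18.6% of all genes higher and 19.4% lower. Of 10 endothelial markers 8 were lower in Th-Cre mice, with a summed level of 676 to 1246 CPM in WT and 677 to 839 CPM in Th-Cre libraries. Of 9 smooth muscle and pericyte markers 7 were lower, at 540 to 730 CPM in WT and 520 to 586 CPM in Th-Cre libraries, and of 13 skeletal muscle markers 11 were higher. Of 8 lymphocyte markers tested 4 were lower and 1 higher, of 12 brown adipocyte markers 4 were lower and 2 higher, of 10 macrophage markers 3 were higher and of 10 Schwann cell markers 2 were lower. No fibroblast, erythroid or sympathetic neuron marker passed. The part of these cells in the genotype difference of the 3 genes was not tested. Without the 6 libraries with muscle transcripts the averaged values were -0.37 for Vamp1, -0.76 for Trim67 and 0.35 for Tmem140.

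**Figure D2:**
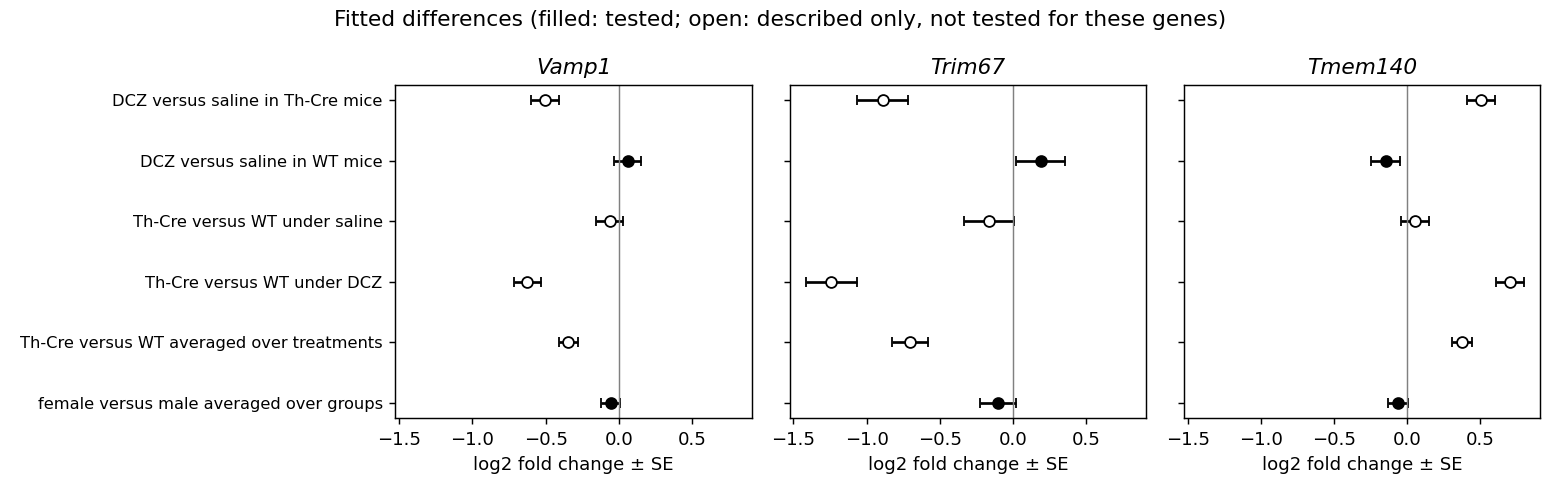
Log2 fold change ± SE (horizontal axis) of each gene in 6 comparisons (rows), with filled points for comparisons that were tested and open points for those that are described only because they use the contrast or groups that chose the genes. Points for DCZ in WT mice, genotype under saline and sex lie near 0, and those for DCZ in Th-Cre mice and genotype under DCZ lie farthest from 0 (-1.24 for Trim67 under DCZ).

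None of the 3 genes passed for females against males averaged over groups (adjusted p of 0.626 to 0.672, edgeR), against 8.07% of genes tested (4.11% higher and 3.95% lower in females). Their log2 fold changes were -0.06 ± 0.0656 for Vamp1, -0.10 ± 0.121 for Trim67 and -0.07 ± 0.0686 for Tmem140 (SE).

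For Trim67 the levels by sex are given for each genotype. The 6 WT males ran from 36.3 to 49.3 CPM with a median of 43.2 and the 6 WT females from 27.9 to 37.8 CPM with a median of 32.2. In WT saline mice the 3 males (38.7 to 43.5 CPM) lay above the 3 females (27.9 to 30.8 CPM). How many of all genes separate 3 males from 3 females was not counted, so nothing is read from this. Th-Cre males averaged 22.6 CPM ± 11.03 and Th-Cre females 25.5 ± 8.17 (SD, n = 6). The female minus male difference was higher in Th-Cre than in WT mice by 0.63 ± 0.209 (log2, SE; unadjusted p = 0.00638, adjusted p = 0.591, edgeR quasi-likelihood test), which does not pass. For this comparison edgeR called 0 genes (0%) with 900 at an unadjusted p under 0.05, DESeq2 called 19 and limma-voom 1. Vamp1 (0.00 ± 0.112) and Tmem140 (0.13 ± 0.117) had smaller values.

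For Tmem140 the levels by sex are given within Th-Cre mice. After saline the 3 males stood at 37.2, 44.6 and 54.1 CPM and the 3 females at 51.4, 53.2 and 59.2 CPM, which overlap. After DCZ the males stood at 70.4, 70.9 and 92.2 CPM, all above the females at 61.7, 66.0 and 66.0 CPM. The share of all genes in which 3 males and 3 females separate was not counted, so nothing is read from this. The DCZ value was 0.78 ± 0.134 in males alone and 0.24 ± 0.0950 in females alone (log2, SE). The difference, females minus males, was -0.54 ± 0.165 (log2, SE). It is given as a description, since it was added after these values were seen and uses the mice that chose the genes. Over all genes, edgeR called 0 for this comparison with 903 at an unadjusted p under 0.05 (DESeq2 called 23). For Vamp1 the difference was 0.09 ± 0.195 and for Trim67 0.37 ± 0.300.

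Whether the genes vary together from mouse to mouse was examined in the 12 WT libraries, which are outside the contrast that chose them, although they shared its filter, scaling and estimate of spread. None of the 3 pairs passed (permutation p, Benjamini-Hochberg over 3 pairs). Vamp1 and Trim67 had a Pearson r of 0.324 (permutation p = 0.307, adjusted 0.732) and a Spearman rho of 0.189 (p = 0.559, adjusted 0.881). Vamp1 and Tmem140 had r = -0.03 (permutation p = 0.932, adjusted 0.932) and rho = 0.03 (p = 0.920, adjusted 0.920). Trim67 and Tmem140 had r = 0.225 (permutation p = 0.488, adjusted 0.732) and rho = 0.175 (p = 0.587, adjusted 0.881). Without the 2 libraries farthest from the median of the first gene, r was -0.39, -0.29 and 0.301. Within the lower 6 and the upper 6 library numbers r was -0.415 and 0.946 for Vamp1 with Trim67, -0.43 and 0.676 for Vamp1 with Tmem140, and -0.10 and 0.803 for Trim67 with Tmem140 (n = 6 each, exact permutation, adjusted p of 0.05 to 0.835). Sex was not removed from these correlations, and in the upper numbers every male lay above every female for each of the 3 genes. The share of all genes with such a separation was not counted. The difference between the lower and upper numbers was not tested.

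Within the 6 Th-Cre DCZ mice r was 0.754 for Vamp1 with Trim67, -0.44 for Vamp1 with Tmem140 and -0.79 for Trim67 with Tmem140, given as a description, since these mice were used to choose the genes. After group means and sex were removed over all 24 mice, r was 0.503 and rho 0.403 for Vamp1 with Trim67, and r was -0.29 and -0.34 for the other pairs. No test is given for these residuals, because they include the 12 Th-Cre libraries used to choose the genes.

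**Figure D3:**
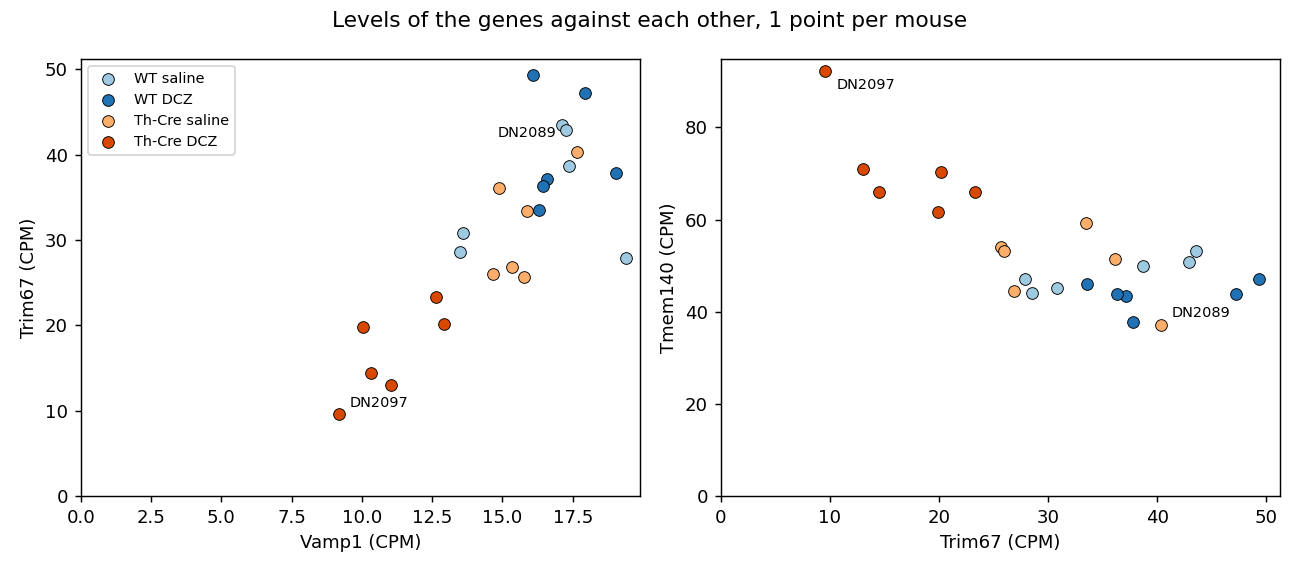
Level of Trim67 against Vamp1 (left) and of Tmem140 against Trim67 (right) in CPM, with 1 point per mouse coloured by group. The 6 Th-Cre DCZ mice lie apart from the other 18, with DN2097 at 9.19 CPM Vamp1, 9.58 Trim67 and 92.2 Tmem140 and the Th-Cre saline mouse DN2089 at 17.6, 40.3 and 37.2.

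Over all 24 libraries and 10919 genes with a mean log2 CPM of at least 1, the genes most like each member were named by Pearson r of log2 CPM, as a description. The points share the 4 groups and the scaling of the libraries. They include the 12 Th-Cre libraries used to choose the members, so high values of r between members are no separate evidence. The same holds for r with Dusp1, which came first in the same order of p. In the 12 WT libraries r was 0.324 for Vamp1 with Trim67, -0.03 for Vamp1 with Tmem140 and 0.225 for Trim67 with Tmem140. Trim67 was the gene most like Vamp1 (r = 0.872), followed by the nuclear receptor coactivator Pnrc2 (0.783) and Ltbp3 (0.761), which binds latent TGF-beta. Among the genes most opposite to Vamp1 were Dusp1 (-0.85), a MAP kinase phosphatase, and Tmem140 (-0.80). Trim67 was most like Rnpc3 (0.875), a protein of the minor spliceosome, 2700097O09Rik (0.874) and Vamp1, and most opposite to Rassf2 (-0.85), Lzic (-0.84) and Rbm15 (-0.83). Rnpc3 averaged 11.5, 10.97, 9.99 and 7.15 CPM and Rassf2 7.70, 7.31, 12.3 and 14.8 CPM in WT mice after saline and DCZ and Th-Cre mice after saline and DCZ. Tmem140 was most like Angptl4 (0.813), an inhibitor of lipoprotein lipase, Lrch3 (0.809) and Pdk4 (0.806), which restrains pyruvate oxidation. Angptl4 averaged 165, 168, 188 and 262 CPM and Pdk4 1130, 1178, 1689 and 2378 CPM in the same order of groups. Most opposite to Tmem140 were Trim67 (-0.81), Vamp1 (-0.80) and Ofd1 (-0.79).

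Relatives and partners of Vamp1 are given by their values. In none of the 8 other vesicle SNAREs or 26 tested SNARE partners did DCZ pass the test in Th-Cre mice or in WT mice, where 0.0229% and 0.00762% of all genes passed, and Vamp1 itself was not among these. Median log2 fold changes in Th-Cre mice were -0.04 for the vesicle SNAREs, with 1 of 8 positive, and -0.04 for the partners, with 9 of 26 positive, against 0.00 over all genes. The nearest relative in function, Vamp2, stood at -0.04 ± 0.0583, Vamp3 of recycling endosomes at -0.01 ± 0.0509 and Vamp4 at -0.26 ± 0.104 (SE). Vamp4 also had a value of -0.24 ± 0.104 in WT mice. Averaged over treatments, 2 of 8 vesicle SNAREs were lower in Th-Cre mice (38.0% of all genes differed): Vamp8 of endosomes and granules by -0.38 ± 0.0539 and Vamp5 by -0.44 ± 0.116 (adjusted p = 4.09e-05 and 0.00481). Of the partners 6 were higher, among them the target-membrane SNAREs Snap29 (0.34) and Snap23 (0.28), and 7 were lower, among them the plasma membrane syntaxin Stx4a (-0.25). Vamp2 was lower in females (-0.19 ± 0.0411, adjusted p = 0.00528), as were 4 of the 26 partners (Stx18, Cplx2, Stx6 and Stx8), against 3.95% of all genes.

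Around Trim67, 3 of 5 class I TRIM ligases were tested, and Trim9, its closest relative, and Trim46 had too few reads. Mid1, Mid2 and Trim36 passed in none of the comparisons. Their Th-Cre DCZ values were 0.40 ± 0.188, 0.07 ± 0.122 and 0.82 ± 0.414 (log2, SE), where Trim67 was negative. The value of Mid2 was smaller than its SE. Trim36 had few reads, with means of 0.353 CPM in Th-Cre saline and 0.630 CPM in Th-Cre DCZ mice. Of 13 genes listed around netrin signalling and Trim67, which include Prkcsh, 10 were tested. For DCZ 0 passed in either genotype, with a median of 0.02 in Th-Cre and -0.14 in WT mice. Averaged over treatments, 4 of the 10 passed, a share close to the 38.0% of all genes: the netrin receptor Neo1 was higher in Th-Cre mice (0.28) and the receptor Unc5b (-0.61) and the actin regulators Evl (-0.43) and Enah (-0.38) were lower. For sex 0 of these 10 genes passed, against 8.07% of all genes.

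Interferon-induced genes were examined beside Tmem140. Of 27 such genes 26 were tested, and 0 passed for DCZ in Th-Cre mice (0.0229% of all genes) or in WT mice (0.00762%). Their values lay mostly on one side in each genotype. In Th-Cre mice 25 of 26 were positive with a median log2 fold change of 0.20, against 0.00 over all genes, and in WT mice 3 of 26 were positive with a median of -0.40. Interferon-induced genes can move together in a mouse, so these are not 26 separate observations. Treatment in WT mice is also close to confounded with library number. Irf1, a transcription factor induced by interferon, stood at 0.27 ± 0.125 in Th-Cre and -0.49 ± 0.124 in WT mice (SE, adjusted p = 0.848 and 0.510). Isg15, a ubiquitin-like modifier, stood at 0.53 ± 0.339 and -0.74 ± 0.339. Averaged over treatments, 4 of the 26 passed, against 38.0% of all genes. Usp18, which removes Isg15, was higher in Th-Cre mice (1.09), and Irf9 (-0.32), Stat2 (-0.29) and Ifih1 (-0.29) were lower. The average joins unlike treatments. Under saline 1 of the 26 was higher and 8 were lower in Th-Cre mice (3270 of 13129 genes passed), with a median of -0.43. Under DCZ 2 were higher and 0 lower (1808 of 13129 genes passed), with a median of 0.14. For sex 0 of the 26 passed, against 8.07% of all genes.

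**Figure D4:**
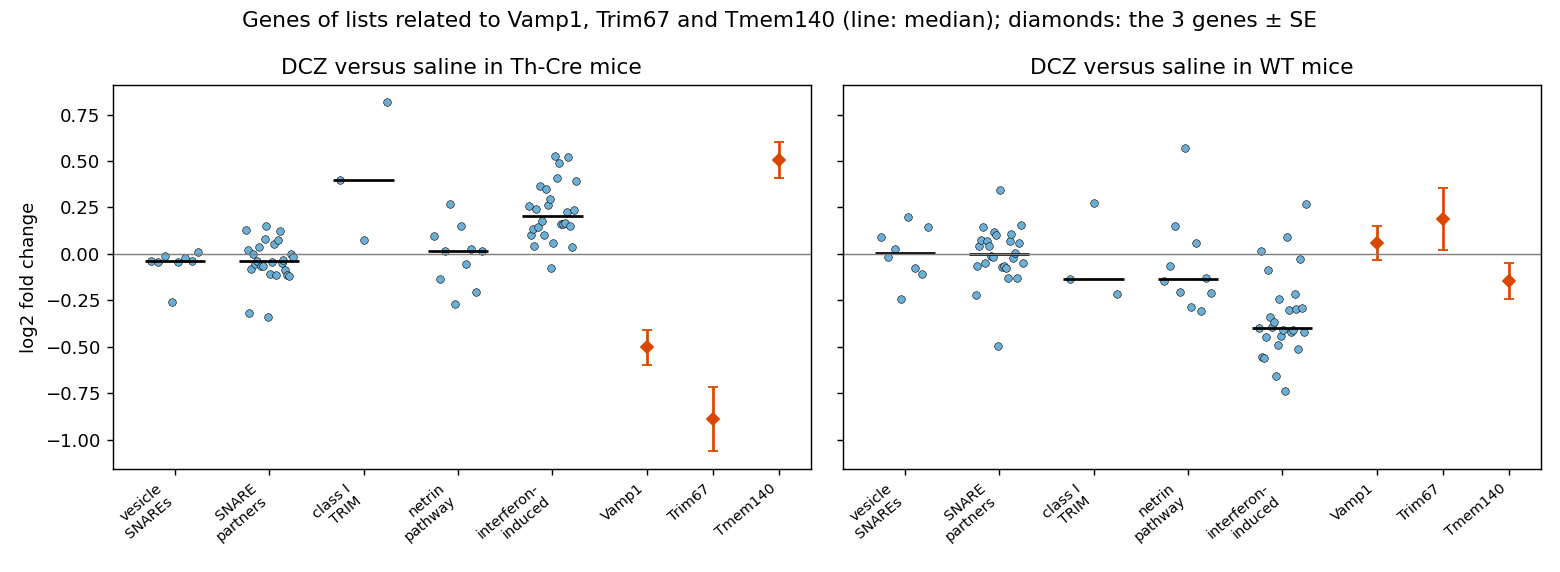
Log2 fold change of DCZ against saline (vertical axis) for each tested gene of 5 lists related to the 3 genes, with a line at each list's median, in Th-Cre mice (left) and WT mice (right), and diamonds with SE for Vamp1, Trim67 and Tmem140. Interferon-induced genes have a median of 0.20 in Th-Cre and -0.40 in WT mice, and SNARE genes have medians near 0 in both.

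Reads of genes that overlap on the genome could be shared, since no source used here gives the use of strand. Vamp1 overlaps Tapbpl, a peptide-loading protein, and Cd27 on the minus strand. Tmem140 overlaps Cyren on the minus strand, and 36.3% of its 31-base stretches (2142 of 5893) also occur in transcripts of Cyren, so its count is less certain than those of Vamp1 and Trim67, which share 1.53% and 1.91% of theirs with other genes. Cyren gave 2019 reads over all libraries against 21082 for Tmem140. Its Th-Cre DCZ value of -0.25 ± 0.160 (SE) was opposite in sign to that of Tmem140. Tapbpl stood at 0.00 ± 0.0961, and 2810004N23Rik, the next gene beyond the end of Trim67 at a distance of 2232 bases, at -0.10 ± 0.119. The tested neighbours on either side of the 3 genes had adjusted p of 0.881 or more for DCZ in Th-Cre mice (edgeR). Wdr91, on the upper side of Tmem140, had the smallest of these with a log2 fold change of -0.20 ± 0.101.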

How the data were processed

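Polyadenylated RNA of 24 mice was sequenced, 1 library per mouse. Per the submitters' processing notes, kallisto 0.44.0 and GRCm38.p6 were used, while the transcript set, the summing to genes and RNA integrity were not stated there. The authors deposited estimated counts per gene as whole numbers. In the authors' deposited run summary the percent of pseudoaligned reads ran from 84.2 to 88.7, and their count table of pseudoaligned reads lay within 205 reads of the totals. The normalized signal deposited by the authors equals the count over 1 size factor per library, set separately per genotype, and served only as an alternative within a genotype, as log2(value + 1).

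Genes were filtered with filterByExpr by group (13129 left, 99.9% of reads), scaled by TMM and tested by quasi-likelihood in edgeR 4.0.16 under R 4.3.3. All 24 libraries entered 1 model of group means plus sex, or of 8 means for differences between the sexes. The common biological coefficient of variation was 15.6%. P-values were adjusted by Benjamini-Hochberg over all genes tested, and a gene passed at an adjusted p under 0.05. The SE is the log2 fold change over the square root of F. The model was tested on simulated data. Correlations used log2 CPM with a prior count of 2 and 100000 resamples. Alternatives were RLE and upper-quartile factors, 2 filters, DESeq2 1.42.0, limma-voom (limma 3.58.1), no term for sex, 1 sex or genotype, a library number term, no muscle-containing libraries and leaving out each library.

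The members and lists were chosen with earlier results of these data known. Named genes were the members, 3 neighbours in the order of p, the 3 most like and most opposite genes, genomic neighbours and up to 4 genes of each related list with the smallest p. A few genes that this rule or the order of p would name are not reported here. Labels name separate mice, and the mouse numbers pair no animals across groups.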

Additional observations from a re-analysis of the deposited data

Results flagged for a closer look

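In the group of 6 Th-Cre DCZ mice, DN2097 stood apart for Tmem140 at 92.2 CPM, with the next mouse at 70.9 CPM, a gap above the 95% critical value of Dixon's ratio for 6 samples. This was 1 of 12 groups of values examined, and chance flags about 1 in 20. Without this library the Th-Cre DCZ log2 fold change of Tmem140 was 0.42, that of Vamp1 -0.45 and that of Trim67 -0.76.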

How the results depend on the processing

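For DCZ in WT mice 1 gene was called, and 0 were called without a filter, with the stricter filter, by limma-voom, without the muscle-containing libraries, with the library number term, without the term for sex, in males, in females or in WT libraries alone; DESeq2 called 12. Leaving out 1 library gave 0 to 39, namely 39 if WT saline 2 was omitted and 0 if 1 of WT DCZ 1, 3, 4, 5 and 6 or of WT saline 7, 8 and 9 was. For DCZ in Th-Cre mice the count of 3 became 20 without a filter, 7 with the stricter filter, 40 by DESeq2, 7 by limma-voom, 7 without the muscle-containing libraries, 1 in males and 13 in Th-Cre libraries alone, a choice made after seeing the data; leaving out 1 library gave 3 to 18, namely 18 if DN2091 was omitted, 6 if DN2094 was, 5 if DN2087 or DN2207 was. For genotype the count of 4994 became 2741 without the muscle-containing libraries, 2991 in males and 908 in females. For the sex difference between genotypes the count of 0 became 6 without a filter, 19 by DESeq2, 1 by limma-voom and 3 without the muscle-containing libraries, and 0 to 2 without 1 library. For sex by DCZ in Th-Cre mice, also added later, it became 5 without a filter, 23 by DESeq2 and 1 with the library number term, and 0 to 15 without 1 library (15 without Th-Cre saline DN2201). The cause was not tested.

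The WT value of Vamp1 turned to -0.051 with the library number term and -0.042 in males. Its averaged genotype value, a description because it holds the mice that chose the genes, was -0.35 in females alone. The sex value of Vamp1 turned to 0.0090 without the muscle-containing libraries. Its sex difference between genotypes, near 0, turned to 0.00058 with the stricter filter, 0.0058 by limma-voom, 0.0090 without the muscle-containing libraries and 0.0081 with the library number term, and ran from -0.053 to 0.10 without 1 library. Its sex by DCZ value ran from -0.027 to 0.23 without 1 library. For Tmem140 the Th-Cre DCZ value was 0.78 in males and 0.24 in females. In WT mice, the correlation of Vamp1 with Trim67 was -0.39 without the 2 farthest libraries and -0.415 in the lower library numbers, and 0.503 for residuals over 24 libraries. That of Vamp1 with Tmem140 was 0.676 in the upper numbers, and that of Trim67 with Tmem140 -0.10 in the lower numbers and -0.34 for residuals. The cause of these shifts was not tested. No paired analysis was possible because the mouse numbers carry no pairing across groups. At the 115 to 352 reads per library of Vamp1, counting error is not small beside the spread between mice.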
